A study of Mus musculus with 6 samples.

Results

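Antioxidant defense was examined through 10 genes, Foxo3, Cat, Gpx1, Nqo1, Gclc, Gclm, Txnrd1, Srxn1, Prdx1 and Sod1, out of 44678 gene identifiers in the count files. They were listed by symbol as Foxo3 and its target Cat together with genes of the Nfe2l2 type, the axes said to change in red cells without this microRNA locus. RNA-seq was performed on splenic CD8a+ leukocytes in 3 libraries of WT mice and 3 of KO mice lacking miR-144 and miR-451a, all without treatment. The labels give no age, and the study's methods describe young adult mice. Per these methods both genotypes were on the C57BL/6J background, the KO mice lacked genomic DNA with both precursors, with no restriction to a tissue stated, and the WT mice were supplied by an animal center rather than stated to be littermates. The methods describe magnetic sorting of CD8+ T cells with Ly-2 beads, of CD4+ T cells and of CD11c+ dendritic cells, but tie none to these libraries. The study introduced its transcriptome sequencing with a question about dendritic cell function. That each library came from a separate mouse is not stated, so the tests measure the spread between libraries. Libraries summed to between 8143971 and 8876570 estimated counts. Values are given as CPM, that is, counts scaled to the library total after TMM correction for composition, and 3 counts equal 0.342 to 0.372 CPM.

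Cells constantly form superoxide and hydrogen peroxide as by-products of respiration and signaling. Superoxide dismutases turn superoxide into hydrogen peroxide, and catalase, glutathione peroxidases and peroxiredoxins turn the peroxide into water, the last groups at the expense of glutathione and thioredoxin. The transcription factor Nrf2, encoded by Nfe2l2, switches on genes that make and recycle glutathione and thioredoxin when its inhibitor Keap1 is oxidised. FoxO factors switch on catalase and other stress genes when they are in the nucleus. The protein 14-3-3ζ, encoded by Ywhaz, holds phosphorylated FoxO factors in the cytoplasm, and Ywhaz is a known target of miR-451a in erythroid cells. Nfe2l2 is a known target of miR-144.

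The mature microRNAs of the deleted locus are shown because their seeds, bases 2 to 8 in capitals, define the sites that were searched for in the antioxidant genes (RefSeq, GRCm38.p6, chromosome 11, plus strand).
miR-144-3p, chr11:78073047-78073066: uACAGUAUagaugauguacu
miR-144-5p, chr11:78073010-78073032: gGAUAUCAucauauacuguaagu
miR-451a, chr11:78073186-78073207: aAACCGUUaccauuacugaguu
Mir144 and Mir451a had 0 counts in each of the 6 libraries, WT included, and the counts hence say nothing of the deletion.

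The longest annotated 3′-UTR of each antioxidant gene (GENCODE M21) held few perfect matches to these seeds. One match was found in each of Foxo3, Srxn1 and Prdx1, and none was found in Cat, Gpx1, Nqo1, Gclc, Gclm, Txnrd1 or Sod1. Among the regulators scanned with them, Nfe2l2 held 2 matches to the miR-144-3p seed, Foxo1 held 1, and Ywhaz held 1 match to the miR-451a seed. Keap1 and Bach1 held none. The sites are shown with the 7 matched bases in capitals, so that each gene's values can be read beside them.
Foxo3, miR-144-5p, chr10:42184876-42184882, minus strand: atatgtctccaaagTGATATCt
Srxn1, miR-451a, chr2:152110860-152110866, plus strand: gtcagcctttaagtAACGGTTc
Prdx1, miR-144-3p, chr4:116700387-116700393, plus strand: taaatgaaaaaaaaATACTGTc
Nfe2l2, miR-144-3p, first match, chr2:75675698-75675704, minus strand: tacagaacttatttATACTGTt
Nfe2l2, miR-144-3p, second match, chr2:75675606-75675612, minus strand: ctatacttttttatATACTGTa
Foxo1, miR-144-3p, chr3:52347394-52347400, plus strand: tatactcttttgtaATACTGTg
Ywhaz, miR-451a, chr15:36772147-36772153, minus strand: ctggtaagggcagaAACGGTTc
Of 11534 tested protein-coding genes with a 3′-UTR, 13.4% held the miR-144-3p match, 5.57% the miR-144-5p match and 1.91% the miR-451a match. A match is a description of letters and not evidence of binding.

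The DNA element through which Nrf2 acts, the antioxidant response element, has the core TGACNNNGC, and this core was searched on both strands from 250 bases before to 50 after each start (RefSeq, GRCm38.p6). It was present in a promoter of 5 of the 9 antioxidant genes with an entry, namely Gclm, Txnrd1, Srxn1, Prdx1 and Sod1, against 12.4% of 32851 promoters. In Txnrd1 it lay in 1 of the 3 promoters listed. Gclc had no entry. The FoxO core TGTTTAC, which 3.65% of promoters held, was in none of the 9, Cat included, within these windows. The list was chosen for genes of the Nfe2l2 type, and its share counts genes where the 12.4% counts promoters. Such a match is a description of letters and not evidence of Nrf2 binding. The 5 matches are shown on the strand of the gene with the core in capitals, all of them in the reverse orientation.
Gclm, chr3:122245416-122245438, plus strand: cccgggcGCACCGTCAactctca
Txnrd1, chr10:82859107-82859129, plus strand: gatttttGCTTTGTCAttctgac
Srxn1, chr2:152105545-152105567, plus strand: gtgggcaGCTAGGTCAgagtgag
Prdx1, chr4:116685459-116685481, plus strand: ggaaagcGCTGAGTCAtcccccg
Sod1, chr16:90220699-90220721, plus strand: aaggtggGCGTGGTCAgactcag

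The antioxidant genes differed widely in level, and their order by mean level per kb of exon was the same in WT and KO libraries. Levels were divided by the joined length of all annotated exons of a gene, 1441 bases for Gpx1 and 3970 for Sod1. A gene read mainly from a shorter transcript is placed too low, so the order holds for this length only. Gpx1 was the highest, with 119 to 186 CPM per kb over the 6 libraries. Cat with 34.8 to 44.9 and Prdx1 with 33.7 to 47.0 CPM per kb followed, and the ranges of these neighbours overlapped. Sod1 with 26.7 to 29.4, Gclc with 17.0 to 25.5, Foxo3 with 14.2 to 16.7 and Txnrd1 with 10.8 to 12.7 CPM per kb came next, each range clear of the one above it. Gclm reached 2.94 to 4.97 CPM per kb. Srxn1 and Nqo1 stood lowest, with 0.607 to 1.42 and 0 to 0.775 CPM per kb, and their ranges overlapped. The libraries carried abundant RNA for the enzymes that remove peroxide and almost none for the quinone reductase Nqo1.

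**Figure D1:**
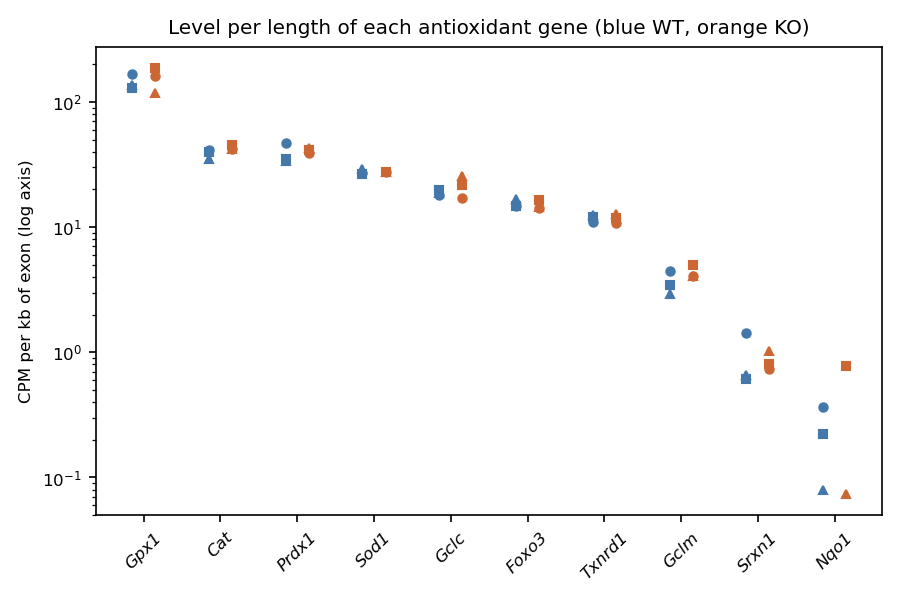
Level of each antioxidant gene per kb of exon (log axis) in 3 WT (blue) and 3 KO (orange) libraries, with circles, squares and triangles for libraries 1, 2 and 3. Gpx1 lies at 119 to 186 CPM per kb and Nqo1 at or below 0.775, and the KO1 value of Nqo1, which is 0, cannot be drawn.

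None of the antioxidant genes passed the test between KO and WT libraries. Of the 10 genes, 9 had enough counts to be tested, the exception being Nqo1. With edgeR (quasi-likelihood, Benjamini-Hochberg over 13024 genes), 0 of the 9 had an adjusted p under 0.05, where 0.0307% of all tested genes did, and DESeq2 and limma voom also gave 0. At an unadjusted p under 0.05 there were again 0 of 9, against 6.25% of all tested genes. The smallest adjusted p among the 9 was 0.817 (edgeR). A total of 5 were higher and 4 lower in KO, with a median log2 fold change of 0.087 beside 0.0030 for all tested genes. Log2 fold changes of the 9 lay between -0.067 and 0.28.

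Foxo3 (ENSMUSG00000048756, chr10:42181841-42276755, minus strand, GRCm38) encodes the FoxO factor that drives catalase in erythroid cells. It had 113, 112 and 126 CPM in WT libraries 1 to 3 and 108, 124 and 111 CPM in KO libraries 1 to 3. The groups overlapped, WT3 being the highest and KO1 the lowest. The means were 117 ± 8.18 CPM for WT and 114 ± 8.95 CPM for KO (SD, n = 3 each). The log2 fold change was -0.034 (SE 0.092, edgeR adjusted p = 0.950), and the 95% interval of the fold ran from 0.843 to 1.13.

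Cat (ENSMUSG00000027187, chr2:103453849-103485160, minus strand) encodes catalase, which splits hydrogen peroxide in peroxisomes. Its levels were 107, 105 and 91.0 CPM in WT and 110, 117 and 109 CPM in KO libraries. All KO libraries lay above all WT libraries, though KO3 exceeded WT1 by little. Cat was the 1 gene of the 9 whose groups did not overlap, while 11.5% of all tested genes showed no overlap and 5.83% lay higher in every KO library. The log2 fold change was 0.15 (SE 0.089, edgeR adjusted p = 0.817), for means of 101 ± 8.69 and 112 ± 4.39 CPM (SD, n = 3 each). The interval of the fold was 0.965 to 1.28, and without WT replicate 3 the log2 fold change dropped to 0.068.

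Sod1 (ENSMUSG00000022982, chr16:90220754-90226329, plus strand) encodes the cytosolic copper and zinc superoxide dismutase. It was the steadiest of the antioxidant genes. WT libraries had 108, 106 and 117 CPM, and KO libraries 110, 109 and 109 CPM. The KO values lay inside the WT range, and the log2 fold change was -0.010 (SE 0.075, edgeR adjusted p = 0.984). This standard error was at percentile 1.08 among all tested genes, and the interval of the fold was 0.880 to 1.12.

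Gpx1 (ENSMUSG00000063856, chr9:108338903-108340343, plus strand) encodes the main cytosolic glutathione peroxidase, a selenoprotein. It measured 242, 185 and 196 CPM in WT and 231, 268 and 171 CPM in KO libraries. WT1, KO1 and KO2 were high and WT2, WT3 and KO3 were low, so the spread ran across the genotypes. The means were 208 ± 30.4 and 223 ± 48.6 CPM (SD, n = 3 each), and the log2 fold change was 0.10 (SE 0.17, edgeR adjusted p = 0.919).

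The same 3 libraries, WT1, KO1 and KO2, had the highest summed CPM in 6 of 9 lists of cell type markers. B cell markers summed to 4860, 4897 and 5168 CPM in WT1, KO1 and KO2, against 2701 to 3050 CPM in the other 3 libraries. Neutrophil markers summed to 1017, 1060 and 1281 CPM in WT1, KO1 and KO2, against 240 to 407 CPM in the others. T cell markers went the other way, with 1951 to 2816 CPM in WT1, KO1 and KO2 and 3648 to 3826 CPM in the others. Between the genotypes, dendritic cell markers summed to 195 to 212 CPM in WT and 236 to 256 CPM in KO libraries, without overlap. Erythroid markers summed to 864, 574 and 249 CPM in WT and 448, 2723 and 857 CPM in KO libraries, with KO2 far above the others. All 9 had a higher mean in KO, where 50.6% of all tested genes were higher. Of the 9, 0 had an unadjusted edgeR p under 0.05. Cd8a itself was counted in every library, and no marker of the 9 lists was at 0 in all libraries. Gpx1 and Gclm were the 2 of 9 antioxidant genes (22.2%) with WT1, KO1 and KO2 on top, beside 13.8% of all tested genes and 29.0% of the 62 tested genes of the wider list described further on. In such bulk samples fewer cells of a type and less RNA per cell cannot be told apart, and the part of cell makeup in these values was not tested. When markers of B cells, monocytes and dendritic cells entered the fit as a covariate, the log2 fold change of Gpx1 was -0.13 (edgeR adjusted p = 0.904).

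Gclc (ENSMUSG00000032350, chr9:77754535-77794485, plus strand) and Gclm (ENSMUSG00000028124, chr3:122245557-122270732, plus strand) encode the catalytic and the modifier subunit of the enzyme that limits glutathione synthesis. Gclc had 68.3, 73.9 and 70.5 CPM in WT and 63.9, 81.7 and 96.1 CPM in KO libraries. The WT libraries were close together, and the KO libraries spread to both sides of them. Its log2 fold change was 0.18 (SE 0.14, edgeR adjusted p = 0.851), and it was 0.016 without KO replicate 3 and 0.31 without KO replicate 1.
Gclm had 27.8, 21.7 and 18.5 CPM in WT and 25.8, 31.3 and 25.4 CPM in KO libraries. KO2 was the highest, and WT1 lay above KO1 and KO3. Gclm had the largest log2 fold change of the 9, 0.28 with a standard error of 0.17 (edgeR adjusted p = 0.818), with an interval of the fold from 0.919 to 1.60. Without WT replicate 1 it was 0.45 (edgeR unadjusted p = 0.0239, adjusted p = 0.513), and it was 0.13 without WT replicate 3 and 0.18 without KO replicate 2. The 2 subunits did not follow the same libraries, since Gclc was highest in KO3 and Gclm in KO2.

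Txnrd1 (ENSMUSG00000020250, chr10:82833951-82897712, plus strand) encodes the cytosolic reductase that recharges thioredoxin. It had 77.4, 85.5 and 88.0 CPM in WT and 76.3, 84.3 and 89.7 CPM in KO libraries. The groups covered almost the same range, and the log2 fold change was -0.0029 (SE 0.094, edgeR adjusted p = 0.996). The interval of the fold was 0.860 to 1.16.

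Prdx1 (ENSMUSG00000028691, chr4:116685544-116700822, plus strand) encodes a peroxiredoxin that thioredoxin keeps reduced. It had 143, 106 and 102 CPM in WT and 118, 125 and 131 CPM in KO libraries. WT libraries lay on both sides of the KO libraries, with WT1 the highest of all. The log2 fold change was 0.087 (SE 0.13, edgeR adjusted p = 0.910). It was 0.25 without WT replicate 1 and -0.017 without WT replicate 3.

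Srxn1 (ENSMUSG00000032802, chr2:152105516-152111376, plus strand) encodes sulfiredoxin, which repairs over-oxidised peroxiredoxins. It had 35, 15 and 15 counts in WT and 18, 19 and 25 counts in KO libraries, or 2.52 ± 1.28 and 2.41 ± 0.404 CPM (SD, n = 3 each). WT1 stood apart, and the other libraries lay close together. At this depth the log2 fold change of -0.067 had a standard error of 0.41 (edgeR adjusted p = 0.979), and the interval of the fold was wide, 0.495 to 1.84. Without WT replicate 1 the log2 fold change was 0.43.

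Nqo1 (ENSMUSG00000003849, chr8:107388225-107403206, minus strand), a quinone reductase often used as a readout of Nrf2, had 5, 3 and 1 counts in WT and 0, 10 and 1 counts in KO libraries. No fold is given, since most libraries lay at or under 3 counts, and a difference was not detectable at this depth.

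**Figure D2:**
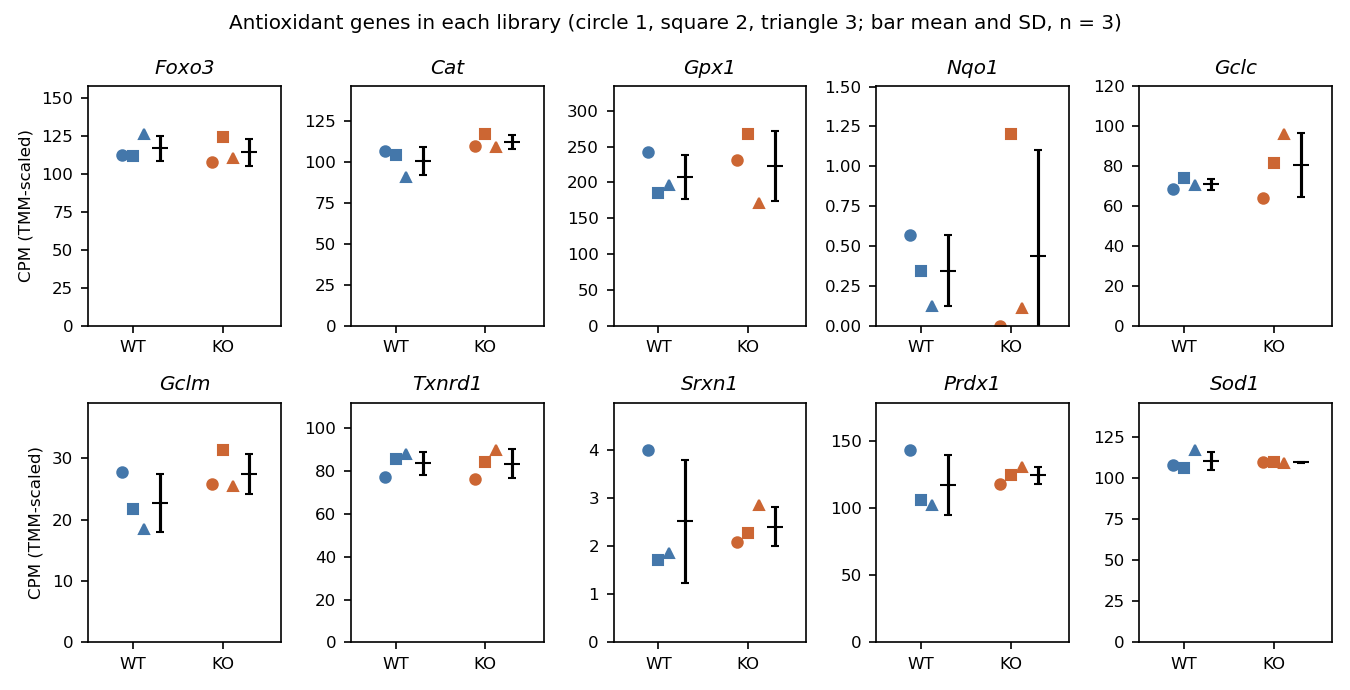
CPM of the 10 antioxidant genes in WT (blue) and KO (orange) libraries, each panel with its own axis from 0. Circles, squares and triangles are libraries 1, 2 and 3 and black bars are the mean with SD (n = 3, cut at 0 for Nqo1). Only for Cat do all KO libraries, at 109 to 117 CPM, lie above the highest WT library at 107 CPM.

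Prdx1, Gclm and Sod1 shared the most sequence with other genes among the antioxidant genes. Of the 31-base words of the Prdx1 transcripts, 15.2% also occur in transcripts of other genes, chiefly the processed pseudogene Gm21399. The share was 5.61% for Gclm, mostly with Ppia, and 5.41% for Sod1, the latter almost wholly through the pseudogene Gm8566. Both pseudogenes had 0 counts in all libraries, whereas Ppia had 4470 to 6995 counts per library beside 149 to 260 for Gclm. Exons of Gclm overlap those of other annotated genes over 244 bp on its own strand and 296 bp on the opposite strand, so its counts are uncertain there. The share was 0.106% for Foxo3 and 0.0703% for Srxn1, and Cat, Gpx1, Nqo1, Gclc and Txnrd1 shared no such word.

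The libraries of Foxo3 and Cat were compared with 70 other genes of these pathways by the root mean square difference of mean-centred log2 CPM over the 6 libraries. Nearest to Foxo3 were Slc3a2 at 0.049, Gpx4 at 0.060 and Sqstm1 at 0.064, where Foxo3 itself varied by 0.088 around its mean. Nearest to Cat were Cited2 at 0.090, Foxo4 at 0.096 and Txnrd2 at 0.099, which is little less than the variation of Cat itself, 0.11. Foxo3 was thus not among the 3 genes nearest to Cat.

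The regulators upstream of these genes did not pass the test either. All 13 regulators listed could be tested, 6 were higher and 7 lower in KO, and 0 had an unadjusted or adjusted p under 0.05 (edgeR), close to the 6.25% and 0.0307% of all tested genes for a list of this size. Nfe2l2, whose 3′-UTR holds both miR-144-3p matches shown above, had 71.3, 62.5 and 55.2 CPM in WT and 60.1, 66.5 and 51.5 CPM in KO libraries. The groups overlapped, and the log2 fold change was -0.087 (SE 0.13, edgeR adjusted p = 0.908). The interval of the fold was 0.766 to 1.16. With the covariate of B cell, monocyte and dendritic cell markers its log2 fold change was -0.23 (edgeR unadjusted p = 0.0391, adjusted p = 0.783).
Keap1, the adaptor that marks Nrf2 for degradation, had a log2 fold change of -0.017 (edgeR adjusted p = 0.983). Bach1, a heme-sensing repressor at antioxidant response elements, had 59.5 ± 4.81 CPM in WT and 69.4 ± 6.83 CPM in KO libraries (SD, n = 3 each), a log2 fold change of 0.22 (edgeR unadjusted p = 0.0664, adjusted p = 0.807). Foxo1, the main FoxO factor of T cells, had a log2 fold change of -0.072 (edgeR adjusted p = 0.910).
Ywhaz had 605, 573 and 571 CPM in WT and 528, 552 and 553 CPM in KO libraries. All KO libraries lay below all WT libraries, as for 5.64% of tested genes, with a log2 fold change of -0.099 (edgeR adjusted p = 0.870). The interval of its fold was 0.818 to 1.07.

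Beyond the 10 genes, 67 further genes of the same pathways were listed, of which 62 could be tested. A total of 34 were higher and 28 lower in KO, with a median log2 fold change of 0.053. None had an adjusted p under 0.05 by edgeR or limma voom, and 1, Slc40a1, had one by DESeq2. The groups did not overlap for 8 of the 62, against 11.5% of all tested genes. At an unadjusted p under 0.05 there were 6 of 62 higher in KO, where 4.14% of all tested genes were, and 2 lower, where 2.11% were.

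The heme and iron genes made up 3 of these 6. Hmox1 encodes heme oxygenase 1, which opens the heme ring, Slc40a1 encodes ferroportin, which exports iron from cells, and Ftl1 and Fth1 encode the ferritin chains. All 6 listed genes of this group were higher in KO. For 4 of the 6 the highest libraries were WT1, KO1 and KO2. Hmox1 had 157, 112 and 97.7 CPM in WT and 317, 407 and 153 CPM in KO libraries. KO1 and KO2 were far above the other libraries, and KO3 lay just below WT1. Its log2 fold change was 1.26 (SE 0.33, edgeR unadjusted p = 0.00529, adjusted p = 0.610).
Slc40a1 had 89.8, 68.8 and 69.6 CPM in WT and 207, 254 and 110 CPM in KO libraries. Here all KO libraries lay above all WT libraries. The log2 fold change was 1.32 (SE 0.28, edgeR unadjusted p = 0.00131, adjusted p = 0.427), and DESeq2 gave an adjusted p of 0.000169. Without KO replicate 3 both genes had an edgeR adjusted p under 0.05, with log2 fold changes of 1.54 for Hmox1 and 1.58 for Slc40a1. Ftl1 had a log2 fold change of 0.40 (edgeR unadjusted p = 0.0240, adjusted p = 0.769), and Fth1, Blvra and Blvrb had 0.19, 0.32 and 0.54 with unadjusted p over 0.05.

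Markers of red pulp macrophages, the splenic cells that take up aged red cells, were high in the same libraries as the heme and iron genes. Their list holds 6 genes, of which Hmox1 and Slc40a1 are also in the group above. All 6 were higher in KO with an unadjusted edgeR p under 0.05, where 4.14% of all tested genes were, 0 of the 6 had an adjusted p under 0.05, and none was at 0. Their summed level was 347 to 530 CPM in WT and 511 to 1333 CPM in KO libraries, highest in KO1 and KO2, and the ranges overlapped. The other 4 were each highest in KO1 and KO2 too. Of these, Spic and Vcam1 had log2 fold changes of 1.29 and 1.20, and Adgre1 and Cd5l had 0.83 and 1.26. With the covariate of B cell, monocyte and dendritic cell markers, log2 fold changes were 0.71 for Hmox1, 0.88 for Slc40a1 and 0.22 for Ftl1. Their edgeR unadjusted p-values were 0.000958, 0.000137 and 0.0424, and adjusted 0.229, 0.099 and 0.792. The mean of Spic, Vcam1, Adgre1 and Cd5l as a covariate was an alternative chosen after the data were seen. It gave 0.19 for Hmox1 (edgeR adjusted p = 0.763), 0.45 for Slc40a1 (edgeR unadjusted p = 0.00302, adjusted p = 0.178) and 0.046 for Ftl1 (edgeR adjusted p = 0.969). The same covariate gave -0.37 for Gpx1, 0.40 for Gclc and -0.38 for Nfe2l2, with edgeR adjusted p-values of 0.291, 0.466 and 0.330. It gave 0.061 for Cat and 0.066 for Bach1, both lower than without it. Since the 4 markers were themselves higher in KO, this covariate takes up part of the genotype difference by its choice. The part of cell makeup in these values was not tested.

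In the thioredoxin system, Txn1, which encodes cytosolic thioredoxin, had 89.8, 90.0 and 85.4 CPM in WT and 123, 104 and 93.4 CPM in KO libraries. All KO libraries were above all WT libraries, as for 5.83% of tested genes, with a log2 fold change of 0.27 and a standard error of 0.11 (edgeR unadjusted p = 0.0348, adjusted p = 0.786). The log2 fold change of Txn1 was 0.15 without KO replicate 1 and 0.12 with the red pulp macrophage covariate. Txnip, which encodes the protein that binds and inhibits thioredoxin, had 551, 526 and 525 CPM in WT and 447, 410 and 467 CPM in KO libraries. All KO libraries were below all WT libraries, as for 5.64% of tested genes, with a log2 fold change of -0.28 and a standard error of 0.089 (edgeR unadjusted p = 0.0148, adjusted p = 0.716). Cytosolic thioredoxin and its inhibitor thus stood on opposite sides, while the reductase Txnrd1 had nearly equal means. Of the 5 genes of this system in the wider list, 2 were higher and 3 lower in KO. Txn2, Txnrd2 and Txnrd3 had log2 fold changes of -0.13, 0.13 and -0.24. None of these differences passed the adjusted threshold.

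Among the genes for glutathione use and NADPH supply, 13 of 15 could be tested and 10 were higher in KO. Of these 10, 8 had their highest levels in WT1, KO1 and KO2, the libraries with high B cell and neutrophil markers, and the part of cell makeup in this direction was not tested. Idh1, a cytosolic source of NADPH, had a log2 fold change of 0.61 with 18.5 ± 3.54 CPM in WT and 28.3 ± 5.39 CPM in KO libraries (edgeR unadjusted p = 0.0132, adjusted p = 0.712; SD, n = 3 each). Idh1 was among those 8, and its log2 fold change was 0.37 with the covariate of B cell, monocyte and dendritic cell markers and 0.15 with that of red pulp macrophage markers. Gsto1 and Gstp1, both glutathione transferases, went in opposite directions, with log2 fold changes of 0.37 and -0.31 (edgeR adjusted p = 0.786 for each). With the red pulp macrophage covariate these were 0.20 and -0.047, and without KO replicate 2 they were 0.23 and -0.20. Of the genes that remove superoxide and peroxide, 8 of 11 could be tested, 2 were higher and 6 lower, and 0 had an unadjusted p under 0.05. The mitochondrial dismutase Sod2, the lipid peroxidase Gpx4 and the red cell peroxiredoxin Prdx2 had log2 fold changes of -0.11, -0.028 and 0.095. With 1 library left out, Sod2 ranged from -0.18 to -0.040 and Gpx4 from -0.083 to -0.0036. The groups did not overlap for 2 of the 8 tested genes of this list, against 11.5% of all tested genes. Both are named for that after their values were seen. Prdx6, at -0.19, was lower in all KO libraries. Gpx3, at 0.42, was higher in all KO libraries, but at low depth and by little. Each WT library held 7 to 14 counts of Gpx3 and each KO library 14 to 16. The nearest libraries were WT3 at 1.61 CPM and KO2 at 1.68 CPM. The 12 FoxO targets listed divided evenly, with 6 higher and 6 lower and 0 at an unadjusted p under 0.05. The 5 other Nrf2-type targets likewise had 0. For lists this short these counts are close to the 6.25% of all tested genes.

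**Figure D3:**
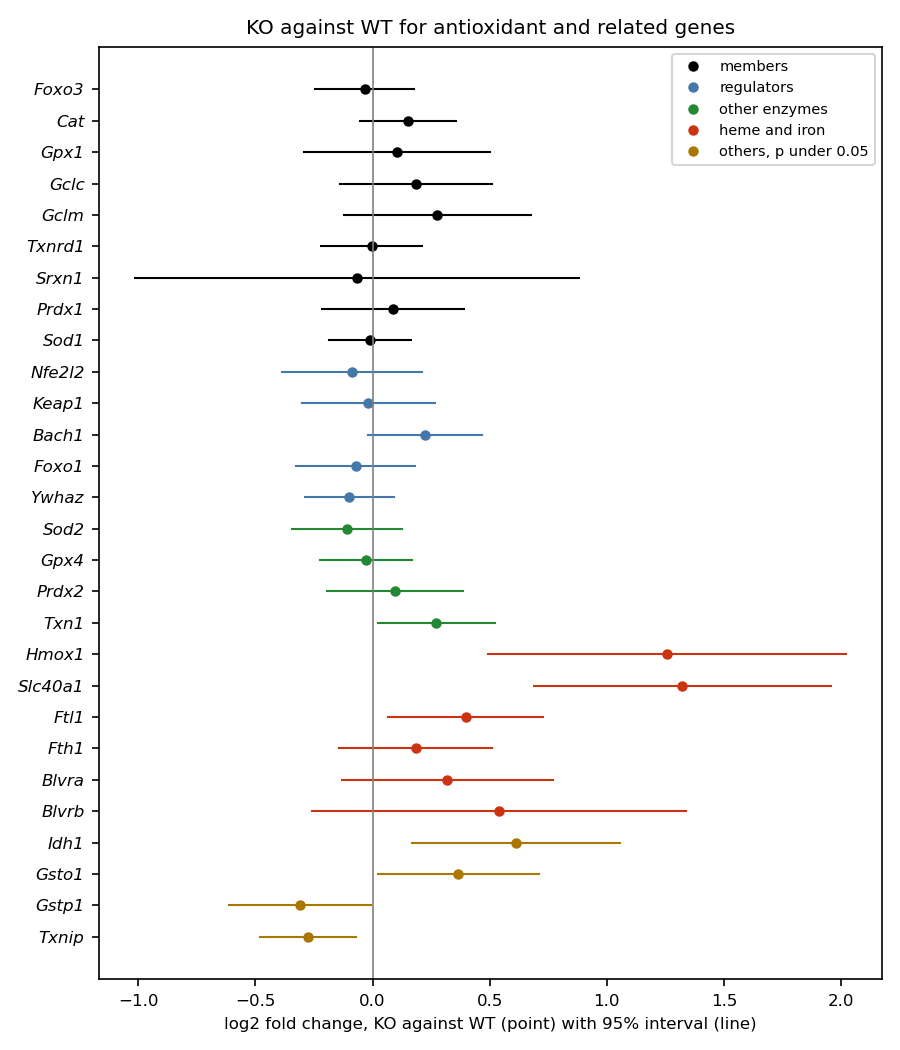
Log2 fold change of KO against WT (points) with 95% intervals (lines) for the 9 tested antioxidant genes (black), regulators (blue), further enzymes and Txn1 (green), heme and iron genes (red) and 4 other genes with an unadjusted p under 0.05 (brown). The intervals of all 9 antioxidant genes include 0, and the points farthest from 0 are Slc40a1 at 1.32 and Hmox1 at 1.26.

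**Figure D4:**
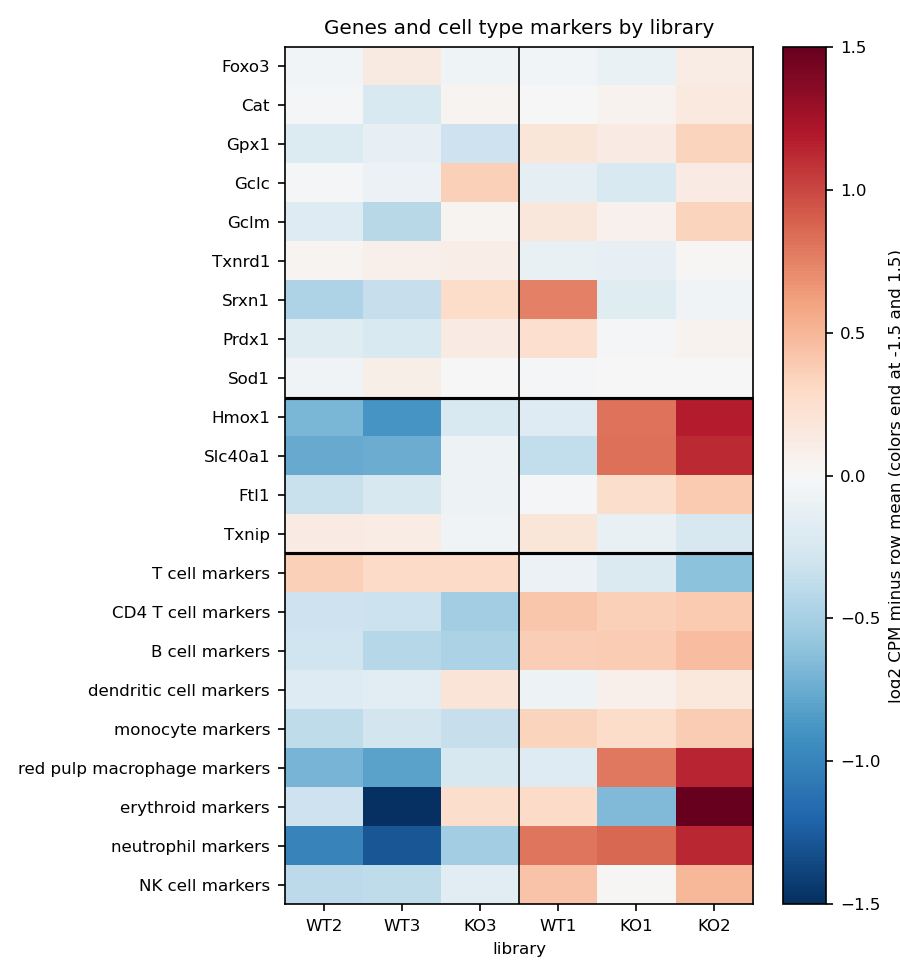
Log2 CPM relative to the mean of each row, for antioxidant genes (top), 4 related genes (middle) and summed cell type markers (bottom), by library, with colors that end at -1.5 and 1.5. WT1, KO1 and KO2 on the right share high B cell and neutrophil markers, with which Gpx1 is high, and Hmox1 and Slc40a1 are highest in KO1 and KO2, as is the summed row of red pulp macrophage markers, which includes both genes.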

How the data were processed

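The 6 RNA-seq libraries (3 WT, 3 KO) were prepared by SMARTER chemistry from total RNA. For each library the authors deposited expected counts, that is, estimated counts per Ensembl gene that need not be whole and carry no scaling, and the submitters' notes name the builds GRCm38 and mm10. The aligner, counter, annotation and use of strand are not given in the sources used here. Counts were rounded and tested in R 4.3.3 with edgeR 4.0.16 (TMM, filterByExpr at min.count 10 and min.total.count 15, quasi-likelihood test, Benjamini-Hochberg adjustment over 13024 genes, threshold 0.05). The fit was tested on simulated data. Symbols, positions and 3′-UTRs came from GENCODE M21, which held 44121 of 44678 identifiers, and microRNAs and promoters came from RefSeq.

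The members and lists were chosen with earlier results of these data known. All 10 members were named, as were genes of the wider list with an unadjusted p under 0.05, 10 fixed regulators and enzymes, and the 3 nearest genes to Foxo3 and Cat. Alternatives were DESeq2 1.42.0, limma 3.58.1 voom, upper-quartile scaling, no filter, the replicate block, removal of erythroid genes, marker covariates and each library left out. Count floors cover counting error only.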

Additional observations from a re-analysis of the deposited data

How the results depend on the processing

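The covariate of red pulp macrophage markers was chosen after seeing the data. Adjusted p-values under 0.05 were found for 4 genes (2 higher), and for 58 (53 higher) with DESeq2, 12 (9) without a filter, 9 (6) with the replicate block, 12 (9) with the covariate of B cell, monocyte and dendritic cell markers and 24 (8) with that of red pulp macrophage markers. With 1 library left out there were 2 to 94 (1 to 86 higher), the most without KO replicate 3. No antioxidant gene of the 10 had an adjusted p under 0.05 in any alternative. At an unadjusted p under 0.05 there were 0 of them, 1 with the first covariate, 2 with the second and 0 to 2 with 1 library left out. Of the wider list, 8 had an unadjusted p under 0.05, 5 with DESeq2 and 3 to 18 with 1 library left out, and 0 had an adjusted p under 0.05, 1 with DESeq2 and 0 to 2 with 1 library left out. The cause of these moves was not tested.

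Cat, Gclc, Bach1, Ywhaz, Gpx4 and the 8 genes of the wider list with an unadjusted p under 0.05 kept their direction in 14 of 14 alternatives. Log2 fold changes reversed with the first covariate to -0.13 for Gpx1, 0.075 for Txnrd1, 0.10 for Keap1, 0.018 for Foxo1 and -0.0024 for Prdx2. With the second they reversed to -0.37 for Gpx1, -0.0066 for Gclm, 0.13 for Txnrd1, -0.0045 for Prdx1, 0.0030 for Sod1, 0.16 for Keap1, 0.098 for Foxo1, 0.021 for Sod2 and -0.100 for Prdx2. Srxn1 reversed to 0.024 with limma voom and 0.0066 with the replicate block. With 1 library left out the range was -0.100 to 0.0092 for Foxo3, -0.046 to 0.24 for Gpx1, -0.079 to 0.041 for Txnrd1, -0.28 to 0.43 for Srxn1, -0.017 to 0.25 for Prdx1, -0.039 to 0.016 for Sod1, -0.19 to 0.0097 for Nfe2l2, -0.15 to 0.060 for Keap1, -0.15 to 0.00068 for Foxo1 and -0.0099 to 0.20 for Prdx2.

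WT and KO libraries share only replicate numbers. Deviations of same-numbered libraries correlated at -0.017, -0.16 and 0.074 across genes, and 0 of 6 libraries correlated best with its own number. No pairing by number was seen, though 3 libraries per group cannot show whether they were collected as pairs. With the replicate block 0 of the antioxidant genes and 0 of the wider list had an adjusted p under 0.05. Depth limits Nqo1 and Srxn1.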
